A study of Mus musculus with 2 samples.

Results

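The 36 genes described here encode the machinery of autophagy and of mitophagy, the form of autophagy that removes mitochondria. They were taken as a named list and placed in the mouse genome with GENCODE M21 on the build mm10, where all 36 were found among 21938 protein-coding genes. The assay was ATAC-seq, which reads out accessible DNA through the insertions of a transposase, in 2 biological replicates of the cell line G1E with 50000 cells each. G1E is a Gata1- erythroid progenitor line, which the labels give as C57BL/6J, male and postnatal, age 0 day. Both replicates carry the loss of Gata1, and they form the only group, so there is no contrast between conditions and no test. The labels do not say whether the replicates were separate cultures of this 1 line, so the spread between them may be technical.

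Autophagy encloses cytoplasm in a double membrane, the autophagosome, which fuses with the lysosome. The ULK kinase complex starts the process and a lipid kinase complex marks the membrane. ATG9, ATG2 and WIPI proteins extend it, and a conjugation system couples the LC3 and GABARAP proteins to its lipids. Cargo receptors then hold the cargo to these proteins. Maturing red cells clear their mitochondria this way, and the outer membrane receptor BNIP3L, also called NIX, is known for its part in this step. FOXO3 and TFEB are transcription factors known to activate autophagy and lysosomal genes.

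A region is a stretch of merged peaks in a replicate's list, and its signal is the enrichment value that the authors' peak caller gave it. Since signal was not scaled between the libraries, each region also has a percentile, its rank by signal among all 21194 regions of replicate 1 or 22620 of replicate 2. A region counts as a gene's promoter region if any annotated start of that gene lies in it or at most 1000 bp away. A distal region lies over 1000 bp from every annotated start site and, for a member, within 50 kb of its outermost 5′ end. The depth is unknown, because the lists hold no read totals, and a gene missing from a list is not shown to be closed. Of the erythroid markers, 6 of 6 (among them Klf1, Tal1 and Epor) had a promoter region in both replicates, against 39.1% of all protein-coding genes. Of the granulocyte and macrophage, T cell, hepatocyte and fibroblast markers, 0 of 6, 0 of 5, 0 of 6 and 0 of 6 did, and 1 fibroblast marker had one in replicate 2 alone. The erythroid markers' regions were mostly of low rank. Their percentile, as the mean of both replicates, had a median of 38.8 (11.6 to 90), against 72.5 for all genes with such a region.

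The sequences below are from regions that the later results turn on, on the + strand of GRCm38.p6 (mm10), outside annotated exons, with matches to a short motif in capitals. The first set shows promoter regions with the E-box CACGTG, which TFEB and its relatives bind, in Atg3, Atg5 and Wipi1. In Atg3 each E-box match is also part of a match to the longer CLEAR core GTCACGTG. The lines of Map1lc3a and Bnip3l show the palindrome TGACGTCA, the element of CREB and ATF factors, at their starts.
Atg3, chr16:45158715-45158783: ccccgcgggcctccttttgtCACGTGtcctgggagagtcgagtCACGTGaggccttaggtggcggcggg
Atg5, chr10:44268305-44268350: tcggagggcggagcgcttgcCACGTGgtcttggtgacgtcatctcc
Wipi1, chr11:109611968-109612011: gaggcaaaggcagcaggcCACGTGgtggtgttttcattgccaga
Map1lc3a, chr2:155276257-155276296: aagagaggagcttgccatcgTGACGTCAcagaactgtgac
Bnip3l, chr14:67008882-67008929: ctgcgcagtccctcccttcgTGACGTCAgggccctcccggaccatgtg

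The second set shows regions away from the main start sites with the GATA motif, AGATAA or TGATAA, which reads TTATCT or TTATCA where it lies on the other strand. They are from introns of Ulk1, Foxo3, Tfeb, Wipi2 and Bnip3l and from a region upstream of Atg4b. The last line shows the region upstream of Map1lc3b, where the capitals mark the ETS motif CCGGAAG or its complement CTTCCGG.
Ulk1, chr5:110804415-110804499: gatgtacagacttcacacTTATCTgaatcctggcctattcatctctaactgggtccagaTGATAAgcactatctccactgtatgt
Foxo3, chr10:42244538-42244638: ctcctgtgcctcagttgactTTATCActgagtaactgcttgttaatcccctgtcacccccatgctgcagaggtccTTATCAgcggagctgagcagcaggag
Tfeb, chr17:47743483-47743562: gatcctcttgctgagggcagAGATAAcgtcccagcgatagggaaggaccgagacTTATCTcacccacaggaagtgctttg
Wipi2, chr5:142650858-142651021: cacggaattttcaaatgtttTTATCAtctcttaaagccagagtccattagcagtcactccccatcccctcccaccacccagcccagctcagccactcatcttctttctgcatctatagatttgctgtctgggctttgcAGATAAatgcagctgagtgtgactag
Bnip3l, chr14:66999774-66999813: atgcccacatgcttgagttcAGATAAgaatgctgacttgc
Atg4b, chr1:93742114-93742202: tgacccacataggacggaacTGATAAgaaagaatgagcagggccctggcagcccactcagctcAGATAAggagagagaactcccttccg
Map1lc3b, chr8:121585635-121585702: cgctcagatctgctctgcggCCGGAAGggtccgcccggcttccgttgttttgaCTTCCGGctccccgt

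Nearly every member had a promoter region. Replicate 1 listed one for 34 of the 36 members and replicate 2 for 35, against 40.5% and 42.1% of all protein-coding genes. In both replicates 34 members (94.4%) had one, against 39.1% of all genes. The exceptions were Atg4c, with none in either replicate, and Gabarap, with one in replicate 2 alone. The CpG content and the number of start sites were higher in the members than in all genes, and their part in these shares was not tested. A gene was called CpG-rich if any of its start sites had an observed to expected CpG ratio of at least 0.6 over 1000 bp. This held for 34 members and 52.5% of all genes, and a gene with more start sites could pass more easily. Members had a median of 5 start sites and all genes a median of 3. Of the 34 CpG-rich members, 32 had a promoter region in both replicates, against 63.3% of all CpG-rich genes. Among CpG-rich genes with 5 or more start sites, 19 of 19 members and 70.1% of all such genes had one. No test was made of these shares, since the list was not chosen independently of earlier results.

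**Figure D1:**
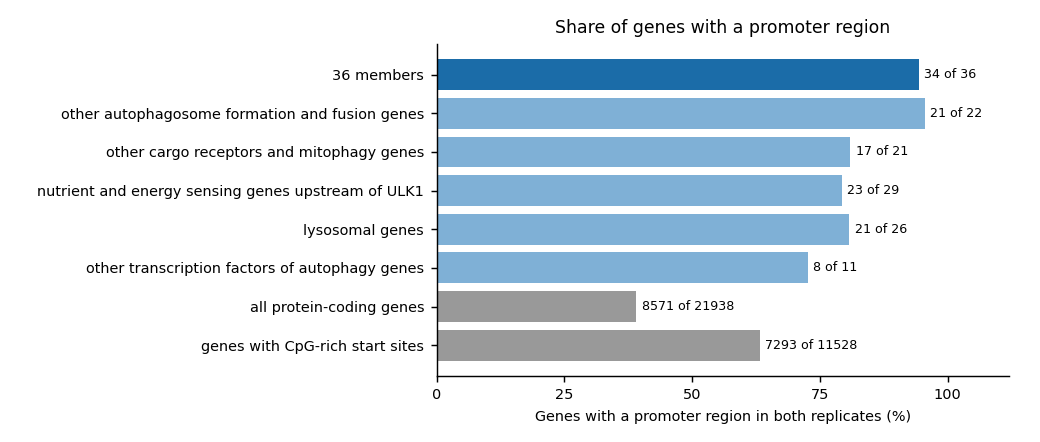
Share of genes (x axis, %) with a promoter region in both replicates, for the 36 members, 5 lists of other pathway genes, all protein-coding genes and all genes with CpG-rich start sites, with counts beside the bars. The members stand at 94.4%, all protein-coding genes at 39.1% and CpG-rich genes at 63.3%.

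The members' promoter regions ranged widely in signal. Their strongest regions had a median signal of 12.1 in replicate 1 and 12.2 in replicate 2, with a range of 4.15 to 21.7 and of 5.25 to 24.3. All protein-coding genes with a promoter region had medians of 10.4 and 11.6. On the scale of percentiles the members' medians were 80.8 and 75.5, and those of all such genes 70.1 and 71.8. In each replicate 18 members lay in the upper 25% of all regions, promoter and distal together. The share of all genes with a promoter region that did so was not counted. Their medians of 70.1 and 71.8 lay below that limit but near it. Without that share, the 18 cannot be read for or against a feature of the members. The members' medians cover only those that had a region. The ratio of replicate 2 to replicate 1 signal had a median of 1.09 over 34 members and of 1.12 over all genes with a promoter region in both. Becn1 and Ulk2 were the members with the widest gap between replicates.

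**Figure D2:**
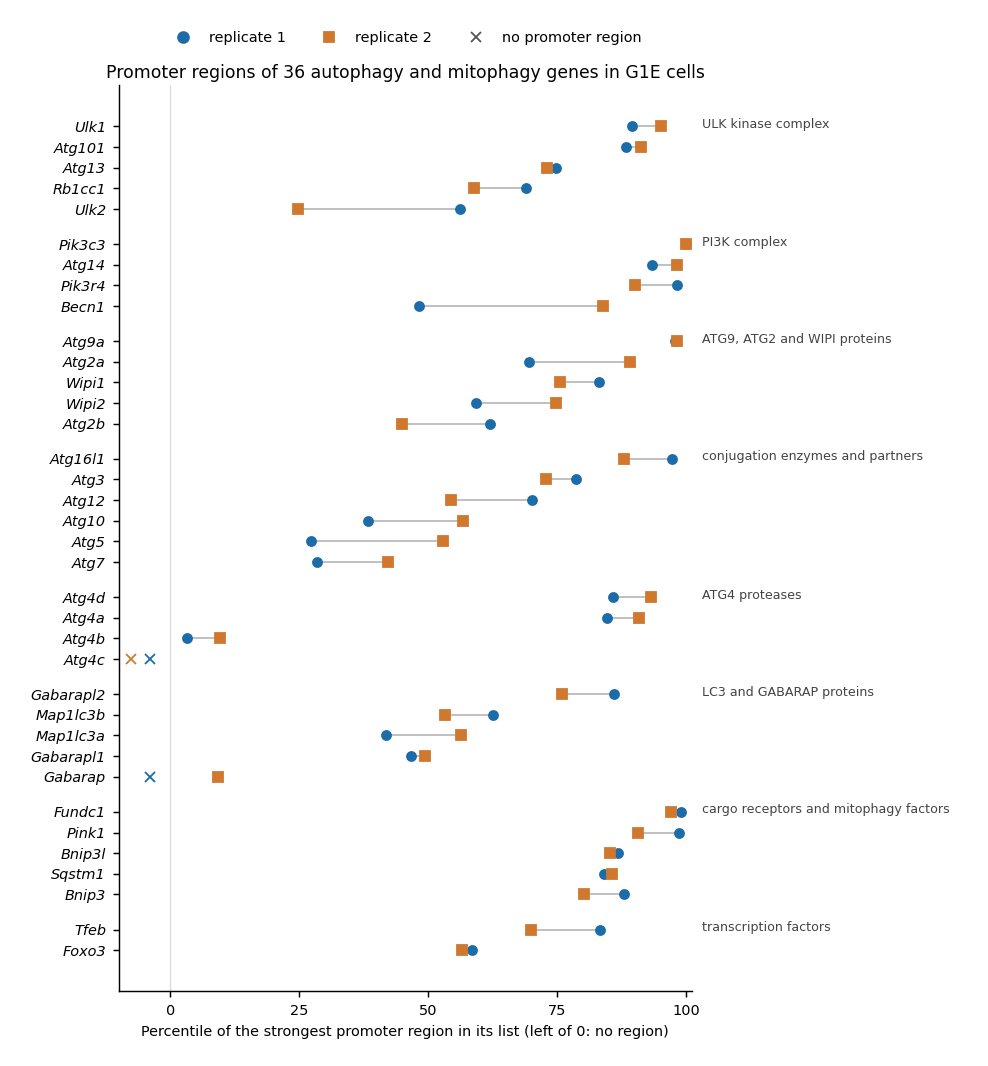
Percentile of each member's strongest promoter region (x axis) in replicate 1 (circles) and replicate 2 (squares), by role and ordered by the mean, with crosses where no promoter region was listed. Pik3c3 lies at 99.9 in both replicates, Atg4b at 3.3 and 9.69, and Atg4c has crosses for both.

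The ULK complex had promoter regions for 5 of 5 genes in both replicates. Ulk1, the kinase that starts autophagy, had a promoter signal of 13.9 in replicate 1 and 17.2 in replicate 2, a mean percentile of 92.3 ± 3.96 (SD, n = 2), the highest of the complex. Its relative Ulk2 was the lowest, with 8.74 and 6.63 and a percentile of 40.5 ± 22.3 (SD, n = 2). Since these paralogs were the highest and lowest of the complex, the gap between them is no separate result. The percentiles of Ulk2 differed widely between its own replicates. Atg101, a stabilizing subunit, had a signal of 13.6 and 15.7. Atg13, a regulatory subunit, and Rb1cc1, the scaffold, lay between Ulk1 and Ulk2, at mean percentiles of 73.9 and 63.9. The Rb1cc1 region lay 7890 bp inside the outermost 5′ end, at its principal start site.

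The PI3K complex, the lipid kinase that acts after ULK1, held the strongest promoter region of all members. Pik3c3, its catalytic subunit, had a signal of 21.7 and 24.3, at the percentile 99.9 in each replicate. Atg14, the subunit that directs the complex to autophagosomes, had 15 and 19.1 and a mean percentile of 95.7 ± 3.38 (SD, n = 2). Pik3r4, the regulatory subunit, was at a mean of 94.1. Becn1, the scaffold subunit, was lowest with 7.97 and 13.8, a mean percentile of 66 ± 25.2 (SD, n = 2). Its percentile differed widely between the replicates. The Becn1 region held a TGACGTCA match and a match to GTAAACA, the FOXO motif.

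Of the ATG9, ATG2 and WIPI proteins, 5 of 5 genes had a promoter region in both. Atg9a, the lipid scramblase of the seed membrane, had a signal of 17.3 and 19.2 (mean percentile 97.9 ± 0.257, SD, n = 2), at a start shared with Ankzf1. Atg2a and Atg2b encode lipid transfer proteins. Atg2a had 10.3 and 15.1, and Atg2b, at a start shared with Gskip, had 9.43 and 8.36, the lowest of the group by mean percentile (53.5 ± 12.1, SD, n = 2). Wipi1 and Wipi2, which bind the lipid made by the PI3K complex, were at mean percentiles of 79.3 and 67. Wipi1 had 12.5 in replicate 1 and 12.2 in replicate 2.

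The 6 genes of the conjugation system all had promoter regions in both replicates, but most were of middle rank. Atg16l1, which sets the site of LC3 coupling, had the strongest with 16.9 and 14.8 (mean percentile 92.6 ± 6.46, SD, n = 2). Atg7, the activating enzyme of the system, had the lowest mean percentile, with 6.31 and 8.08 (35.3 ± 9.76, SD, n = 2). Since Atg16l1 and Atg7 are named as the highest and lowest of the group, the gap between them is no separate result. Atg5, which forms a conjugate with ATG12, had 6.27 and 9.22, and its percentiles overlapped those of Atg7. Atg10, the enzyme that passes ATG12 to ATG5, had 7.1 and 9.67. Atg12 itself and Atg3, the enzyme that couples LC3 to lipid, had mean percentiles of 62.2 and 75.7. Atg3 had 2 promoter regions in both replicates, both within 1000 bp of a start of Slc35a5 as well.

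The ATG4 proteases, which trim LC3 proteins before coupling and release them from lipid later, were the most uneven group. Atg4d had a signal of 13 and 16.3 (mean percentile 89.4 ± 5.12, SD, n = 2) and Atg4a 12.8 and 15.6. Atg4b had only 4.15 and 5.31 (6.49 ± 4.52, SD, n = 2), and the regions were different ones. That of replicate 1 lay at its principal start, chr1:93754609-93755076, which is shared with Thap4. That of replicate 2 lay at chr1:93756152-93756502 in an intron, 990 bp from a start of a non-coding transcript. In the lenient lists Atg4b had 5.44 and 5.94. Atg4c had no promoter region in the thresholded, lenient or ranked lists of either replicate. It was nonetheless CpG-rich by the rule above, with an observed to expected ratio of up to 0.79. It also had 0 distal regions within 50 kb.

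LC3 and GABARAP proteins are the ubiquitin-like tags of the autophagosome. Gabarapl2 had the strongest promoter region of the 5 genes, with 13.1 and 12.3 (mean percentile 80.9 ± 7.16, SD, n = 2), and its summit lay 704 bp upstream of the start. Gabarapl1, with 7.85 and 8.82, had the lowest mean percentile of those in both replicates (48 ± 1.89, SD, n = 2), close to Map1lc3a at 49.2 ± 10.3 (SD, n = 2). Those last 2 genes did not differ beyond their spread. Gabarap had 5.25 in replicate 2 and no thresholded region in replicate 1. There, the lenient list gave it 4.79, and the authors' irreproducible discovery rate, a measure of how poorly a peak's rank repeats between pseudoreplicates, was 0.0873. In replicate 2 that rate was 0.0292. All peaks of the thresholded lists had a rate under 0.05.

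Map1lc3b, the LC3 gene most often used to follow autophagy, had its region in both replicates beside its start. This region, chr8:121591344-121591685, had 9.49 and 9.23 and began 983 bp inside the outermost 5′ end. The start itself was listed in replicate 2 alone, with 4.08. A stronger region lay 4.54 kb upstream, with 12.8 and 14.5, inside an intron of the overlapping gene model Gm20388. Its 2 ETS matches are the ones in capitals above.

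The cargo receptors and mitophagy factors had promoter regions of high rank in 5 of 5 genes, with mean percentiles from 84 to 98. Fundc1, a mitophagy receptor of the outer membrane, had a signal of 18.5 and 18.3 (98 ± 1.33, SD, n = 2), at start sites with a CpG ratio of at most 0.47. Pink1, the kinase that marks damaged mitochondria, had 17.9 and 15.5, with the summit 613 bp inside the gene. Sqstm1, whose product binds ubiquitin on cargo, had 12.7 and 14.2 at a region within 1000 bp of a start of Mgat4b as well. Bnip3, the receptor related to BNIP3L, had 13.5 and 13.1, the lowest mean of the group (84 ± 5.47, SD, n = 2). The percentiles of Bnip3, Sqstm1 and Bnip3l overlapped between replicates. All these ranks use each gene's strongest region, which for Bnip3l lay inside the gene. Those of Pink1 and Sqstm1 also lay inside, 489 and 371 bp from the outermost 5′ end, and covered no annotated start of the gene. At its principal start the Bnip3l percentiles were 73.8 and 82.6.

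Bnip3l had 3 promoter regions in both replicates. The strongest, with 13.3 and 14.1, was not at the main start but 8619 bp inside the gene, at chr14:66999288-67000258. It counts as a promoter region only through start sites of non-coding transcripts, and it is the 1 region of this kind among the members' 39. The region at the principal start, chr14:67008746-67009288, had 10.9 and 13.6, and the third, 215 bp inside the outermost 5′ end, had 6.22 and 7.28. The internal region had 2 GATA matches around its summit, of which the sequence above shows 1. It differs in motif from the region at the principal start, which has a TGACGTCA match and no GATA match. Over all members only Atg4d had another promoter region with a GATA match.

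Both transcription factors had a promoter region in both replicates. Foxo3 had a signal of 9.02 and 9.65 (57.6 ± 1.38, SD, n = 2) at a region whose edge lay 625 bp upstream of the start. Its start itself was listed in replicate 2 alone, with 4.79. Tfeb had 3 promoter regions in both. The strongest, with 12.5 and 11.4 (76.6 ± 9.47, SD, n = 2), lay at an internal start 17076 bp inside the outermost 5′ end. The regions at its outermost 5′ end and 377 bp inside it had 5.15 and 5.47, and 8.56 and 6.9. None of the 3 lay within 1000 bp of the principal start of Tfeb, at chr17:47785720.

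**Figure D3:**
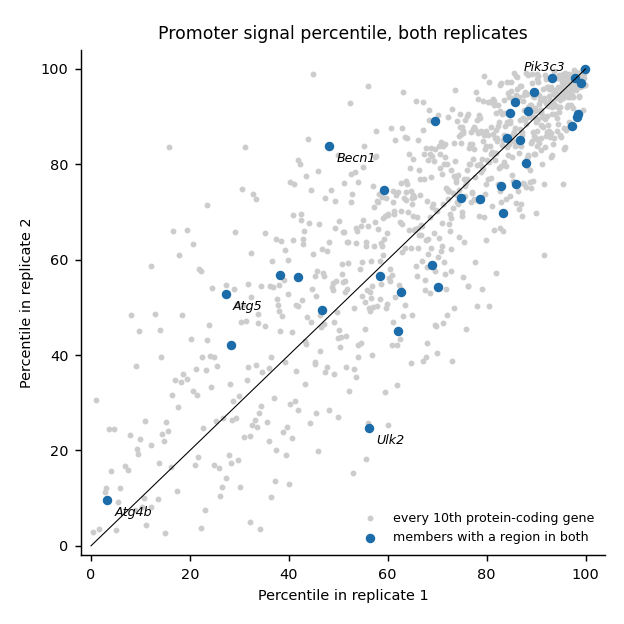
Percentile of the strongest promoter region in replicate 1 (x axis) and replicate 2 (y axis) for the 34 members with a region in both (large points) and every 10th protein-coding gene with one (small points), with the line of equality. Becn1 lies at 48.2 and 83.8 and Ulk2 at 56.2 and 24.8, the members farthest from the line.

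The regions' place and their neighbours were described next. In 32 members a region in both replicates lay within 1000 bp of a principal start, the start of the main protein isoform. Tfeb was not among them. Of the 39 distinct promoter regions, 23 had the summit within 100 bp of a start, and the median offset was 83 bp. In 7 members the region was shared with a start of another protein-coding gene, and over all genes 27.4% of those with the same region in both replicates shared it. Atg4a and Fundc1, both on the X chromosome, were the members without CpG-rich starts (ratios 0.38 and 0.47), and their regions had mean percentiles of 87.7 and 98.

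Distal regions were listed near most members. In both replicates, 22 of 36 members (61.1%) had at least 1 distal region within 50 kb, against 32.3% of all protein-coding genes. At least 2 were near 14 members (38.9%), against 13.3%. Among the other 109 pathway genes, 46.8% had at least 1. So did 5 of 6 erythroid markers. Of the markers of other cell types, 4 of 6 hepatocyte and 3 of 5 T cell genes also had at least 1. For granulocyte and macrophage markers it was 3 of 6, and for fibroblast markers 1 of 6. A distal region nearby is thus not particular to the members. No region lay near 2 members, so 39 distinct regions were counted, and 16 more were listed in 1 replicate alone. Their median percentiles were 54.9 and 60.5, and those of all 8227 distal regions 51.4 and 52.5. Of the 39, 28 lay in introns, 14 of them in an intron of the member itself. For 21 regions, near 13 members, the nearest protein-coding 5′ end was the member's own. The other 18 were nearer to another gene.

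**Figure D4:**
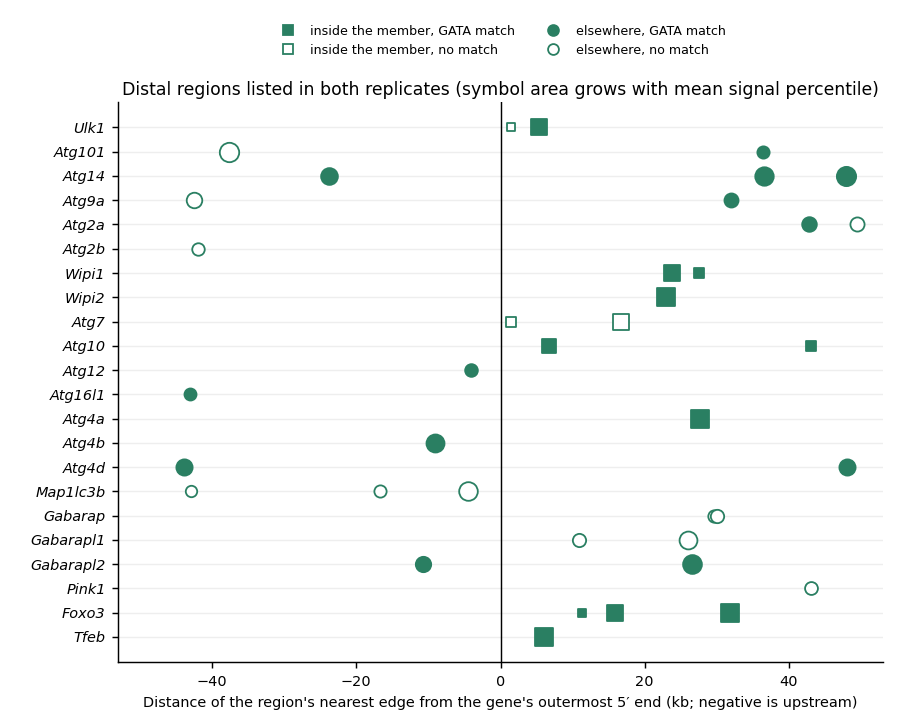
Distance in kb of each distal region in both replicates from the outermost 5′ end of its member (x axis, negative is upstream), 1 row per member with a region; squares lie inside the member, filled symbols have a GATA match, and the area grows with the mean percentile. The 3 regions of Foxo3 are filled squares downstream of the start, and those of Map1lc3b are open circles upstream.

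By role, the ATG9, ATG2 and WIPI genes had distal regions in 5 of 5 cases. For the LC3 and GABARAP genes it was 4 of 5, against 32.3% of all protein-coding genes. Of these genes, only Wipi1, Wipi2, Map1lc3b and Gabarapl1 had a region nearest to their own 5′ end. The cargo receptors and mitophagy factors, with the high promoter percentiles above, had 1 region in both replicates. It lay 43.1 kb downstream of the Pink1 start with a signal of 7.41 and 6.91, in an intron of Kif17 and nearest to Ddost. Further regions within 50 kb of Bnip3, Bnip3l and Pink1 were listed in 1 replicate alone.

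Ulk1 had a region 5.35 kb inside the gene, chr5:110804246-110804748, with 9.07 and 12.2 and 2 GATA matches. A second, 1.51 kb inside, was weak in both replicates (4.35 and 4.97). Foxo3 had 3 regions in its introns, 31.9, 15.8 and 11.3 kb from the 5′ end. The first had a signal of 12.5 and 13, the second 7.38 and 11.4, and the third 4.41 and 4.83. Each of the 3 had at least 1 GATA match. Another intronic region, 7.04 kb from the 5′ end, was listed in replicate 2 alone with 5.36 and had no GATA match. Tfeb had 1 region, 6.09 kb inside the gene at chr17:47743116-47743759, with 12.8 in each replicate and 2 GATA matches.

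Atg14 had 3 distal regions, all nearest to its own 5′ end and each with a GATA match. They lay 47.9 and 36.6 kb downstream and 23.8 kb upstream, with signals of 17 and 14.6, 13.6 and 13.1, and 8.72 and 12.9. The one at 36.6 kb also held 2 E-box matches, the 1 distal region of the members with any. Wipi1 had regions 23.7 kb and 27.6 kb inside the gene, with 10.9 and 10.1 and with 5.27 and 6.43. A further 4 regions within 50 kb of Wipi1 were listed in 1 replicate alone. Atg10 had regions 6.72 kb and 43.1 kb inside the gene, with 8.59 and 7.87 and with 4.84 and 7.17. Atg7 had regions 1.5 kb and 16.8 kb inside, with 4.45 and 6.38 and with 9.87 and 10.5. The Atg7 regions were those within a member's own introns, apart from the weak one of Ulk1, that had no GATA match.

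For the other members with 2 or more distal regions, most of these regions were nearer to another gene. Atg101 had one 37.6 kb upstream (15.5 and 16.5), nearest to Nr4a1, and one 36.4 kb downstream (6.54 and 7.08). Atg9a had regions 31.9 kb downstream (6.45 and 9.81) and 42.5 kb upstream (8.08 and 10.5). Both regions of Atg2a, 42.8 and 49.4 kb downstream, lay in introns of Ehd1 (8.19 and 8.64, and 6.17 and 10.6). None of these 6 regions had the member as its nearest gene. Atg4d had regions 43.9 kb upstream (9.57 and 10.3) and 48.1 kb downstream (8.63 and 11.2). Gabarap had 2 in introns of Dlg4 (5.53 and 8.64, and 6.51 and 8.58). Gabarapl2 had one 10.7 kb upstream (9.03 and 9.04) and one 26.5 kb downstream in Adat1 (12.8 and 15.4). Gabarapl1 had one 10.9 kb downstream that was nearest to it (8.77 and 6.27) and one at 26 kb (12.2 and 12). Besides the region 4.54 kb upstream, Map1lc3b had weaker ones 16.7 kb (5.93 and 7.86) and 42.9 kb upstream (6.17 and 6.68).

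Of the members with 1 distal region, Wipi2 had one 23 kb inside the gene with 13.2 and 15.4, and Atg4a one 27.7 kb inside with 16.2 and 10.3. Atg4b, weak at its promoter, had a region 9.11 kb upstream in an intron of Thap4 with 10.8 and 14.3 and 2 GATA matches, above both of its promoter values. Those of Atg2b, Atg12 and Atg16l1 had mean percentiles of 32.7, 34 and 29.5.

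Motifs were counted as exact matches on either strand in 200 bp around the replicate 1 summit. Each match is a string of letters and not a measured binding site. The GATA motif was in 24 of 39 distal regions near members (61.5%), and in 59.8% of all distal regions. That share is near the background and is no feature of these genes. Regions with 2 or more GATA matches made up 28.2% of the distal regions near members and 23% of all distal regions. In promoter regions a GATA match was in 5.13% of the members' and 10.3% of all. The E-box was in 5 of 39 promoter regions (12.8%, against 8.44% of all 8538), those of Atg14, Atg2b, Wipi1, Atg3 and Atg5. The CLEAR core, each match of which is also an E-box match, was in those of Atg14 and Atg3 (5.13% against 3.57%). TGACGTCA was in 4 (10.3% against 3.47%), those of Becn1, Atg5, Map1lc3a and Bnip3l. The FOXO motif was in 3 distal regions near members (7.69% against 3.29%), beside Atg101, Atg14 and Map1lc3b. The ETS motif was in 4 promoter regions (10.3% against 18.5%) and in 3 distal regions (7.69% against 2.65%). The SP1 motif GGGCGG was in 56.4% of the members' promoter regions and 58.1% of all. The other motifs were the antioxidant response element of NRF2 (TGACNNNGC), NRF1 (GCGCATGC), NFY (CCAAT), YY1 (AAGATGG), the hypoxia response element (ACGTGC, which can overlap an E-box), AP-1 (TGANTCA) and RUNX (TGTGGT). NFY was in 28.2% of the members' promoter regions and 39.4% of all, and the NRF2 element in 12.8% and 12.2%. The hypoxia element was in 5.13% of the members' promoter regions and 6.44% of all, NRF1 in 5.13% and 4.33%, and YY1 in 2.56% and 5.26%. In distal regions RUNX was in 23.1% and 24.2%, and AP-1 in 15.4% and 14%. There the hypoxia element was in 10.3% and 3.99%, and the NRF2 element in 7.69% and 14.2%. With 39 regions, 1 region changes a share by 2.56 percentage points.

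**Figure D5:**
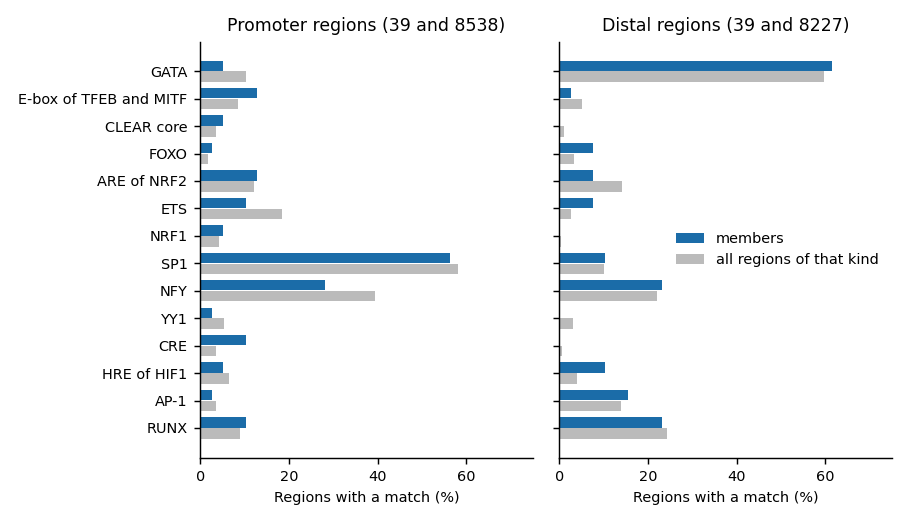
Share of regions (x axis, %) with an exact match to each of 14 motifs in 200 bp around the summit, for promoter regions (left) and distal regions (right) of the members and of all regions of that kind. For GATA in distal regions the bars stand at 61.5% and 59.8%, and for the TGACGTCA element (CRE) in promoter regions at 10.3% and 3.47%.

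The other genes of the pathway, 109 in 5 lists, had a promoter region in both replicates in 90 cases (82.6%). Such a region was listed for 39.1% of all protein-coding genes and for 63.3% of CpG-rich genes. Among genes of autophagosome formation and fusion, 21 of 22 had one, led by Epg5, a tether for fusion with the lysosome (18.9 and 15.8), and Uvrag, a subunit of another PI3K complex (15.2 and 16.5). Among other cargo receptors and mitophagy genes, 17 of 21 had one. Tbk1, a kinase of cargo receptors (15.6 and 18.8), and Vcp, which extracts ubiquitin-tagged proteins (17.4 and 16.9), led it. Wdfy3 and Retreg1, a receptor for endoplasmic reticulum, had none in either.

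Of the genes that sense nutrients and energy upstream of ULK1, 23 of 29 had a promoter region in both, with the mTORC1 regulators Rragc (16.1 and 17.5) and Lamtor1 (15.3 and 16.8) at the top. Rragd and both catalytic subunits of AMP-activated kinase, Prkaa1 and Prkaa2, had none in either. Of the lysosomal genes 21 of 26 had one, led by Npc2 (16.4 and 19.4), a cholesterol carrier, and the membrane protein gene Lamp2 (16.9 and 17). Lamp1, Hexa and Cln3 had none in the thresholded lists. In the lenient lists Lamp1 had 2.96 and 5.98, and Cln3 had 4.02 in replicate 2 alone. Among the other transcription factors, 8 of 11 had one, led by Hif1a (16.9 and 17.6) and Tfe3, a relative of TFEB (12.8 and 13). Mitf, Foxo1 and Atf4 had none in the thresholded lists, though Atf4 had 4.99 in the lenient list of replicate 2.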

How the data were processed

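ATAC-seq of 2 replicates of G1E cells was used as peak lists on mm10. The authors thresholded the lists of each replicate by the irreproducible discovery rate, per the notes deposited with the samples. The deposited signal of a peak is its enrichment value, and the deposited −log10 p value is that of the peak. Peak caller and aligner were not given in the sources used here. The depth is unknown. Overlapping or touching peaks were merged, each region taking its strongest peak, and placed with GENCODE M21. Regions of the replicates that overlapped by 1 bp were joined. Sequences came from RefSeq's GRCm38.p6. The 36 members and the other lists were chosen with earlier results of these data known, so no list was tested.

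Values in each replicate are given for members without a promoter region in both, those with 2 or more distal regions in both, the highest and lowest mean percentile of each role, and 9 genes chosen by name. Of the other lists, the 2 highest and those with none in either are named, and others that appear were chosen after their values were seen. The lenient and the conservative joint lists, windows, start sites and leaving out each replicate were alternatives. From whole-series lists, 16 unnamed columns could not be tied to samples and were not used. The T cell marker Trac matched no protein-coding gene. Placement and motif search were tested on simulated data. Python 3.11.15 with pysam 0.24.0 was used.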

Additional observations from a re-analysis of the deposited data

How the results depend on the processing

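The number of members with a promoter region, 34, stayed between 30 and 35 under the lenient lists, promoter windows from 500 to 2000 bp, basic or outermost starts, summits in place of edges and the same region in both replicates, and was 25 with the stronger 50% of regions (69.4%, against 27.2% of all genes). Without replicate 1 or 2 it was 35 and 34. The start sites of protein-coding transcripts (33) and the conservative joint list (34) were alternatives chosen after the data were seen. Distal counts depend on the window and on which gene a region is given to. Members with a distal region, 22, became 13 within 25 kb (36.1%, against 19.9% of all genes), 13 where only the nearest protein-coding 5′ end counted (36.1% against 16.9%), and 14 with the stronger 50% of regions (38.9% against 16.9%). The 39 distal regions became 17, 21 and 18 under these settings and 63 within 100 kb. Leaving out a replicate gave 24 to 25 members and 44 to 51 regions. The members' median percentile, 78, was 86.3 in the lenient lists, which hold more regions, and 75.5 to 80.8 without a replicate. Pathway genes with a promoter region, 90, ranged from 89 to 98, or 92 to 96 without a replicate. Distal regions with a GATA match, 24, were 17 in 100 bp (43.6%, against 42.9% of all distal regions) and 24 in 400 bp (61.5%, against 69.7%). No paired analysis was possible because the 2 replicates form 1 group. Peak lists give no depth, so weak regions missing from 1 list cannot be told apart from missed ones.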
